A study of Mus musculus with 4 samples.

Results

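The dystrophin glycoprotein complex links the actin cytoskeleton of muscle fibres to the basement membrane. Dystrophin (Dmd) or its autosomal relative utrophin (Utrn) holds actin on the inside and binds the membrane protein dystroglycan (Dag1), whose extracellular part carries sugar chains that grip laminin. Sarcoglycans form a transmembrane subcomplex beside dystroglycan, and dystrobrevins and syntrophins form a cytoplasmic arm that docks signalling enzymes. Loss of dystrophin causes Duchenne muscular dystrophy, and loss of certain sarcoglycans, though not of every one, causes a limb-girdle form. The genes described here were chosen by name, as Dmd, Utrn, Dag1, the sarcoglycans Sgca, Sgcb, Sgcd and Sgce, the dystrobrevin Dtna and the syntrophin Sntb1. These are 9 of 49585 annotated genes, and 8 of them were among the 15078 genes with enough counts to be tested.

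Messenger RNA was sequenced from C2C12, a mouse myoblast line of C3H origin, while the cells were proliferating in growth medium. In 2 libraries the cells carried a retrovirus that overexpresses the leucine-zipper transcription factor C/EBPβ, and in 2 they carried the empty retroviral vector pLXSN. Cells of both groups were selected in 1200 μg/ml G418 for 7 days, kept as pools of stable transductants and grown for another 48 h, and the stated serum content of the medium of the line is 10%. The promoter of the C/EBPβ insert is not stated. Nor is it stated whether replicates were transduced apart from each other, so that the p-values reflect spread among these samples alone, and this spread may be technical. The question is how excess C/EBPβ changes transcript levels before differentiation is induced.

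The C/EBPβ libraries held 38656497 and 92027838 counts and the empty vector libraries 40912955 and 37566321, of which mitochondrial genes took 1.31% and 1.13% in C/EBPβ libraries and 1.38% and 0.954% in empty vector libraries. Cebpb, the overexpressed gene, stood at 483 and 473 CPM (counts scaled by library total and TMM factor) in C/EBPβ cells, against 85.0 and 76.8 CPM in empty vector cells. Of 5 myoblast markers Myf5 was higher in C/EBPβ cells and Myod1, Des, Cdh15 and Itga7 were lower, and their summed level was 1484 and 1727 CPM in C/EBPβ cells, against 2676 and 2921 CPM in empty vector cells. All 10 markers of differentiating muscle fell, with summed levels of 47.7 and 76.4 CPM in C/EBPβ cells and 215 and 247 CPM in empty vector cells. Of all tested genes 24.9% were called (as defined below), 14.1% as higher and 10.8% as lower. Of 6 smooth muscle markers 5 were tested and 4 rose, and their sum was 3963 and 2743 CPM in C/EBPβ cells, against 1550 and 1074 CPM in empty vector cells. The defining Schwann cell gene Sox10 and the leukocyte genes Adgre1 and Tyrobp had 0 counts in all 4 libraries. The summed level of 5 leukocyte markers was 7.47 and 7.69 CPM in C/EBPβ cells and 5.79 and 5.15 CPM in empty vector cells, with 1 of 2 tested higher, and that of 5 endothelial markers was at most 0.566 CPM in any library. The sum of 6 Schwann markers was 222 and 223 CPM in C/EBPβ cells and 170 and 140 CPM in empty vector cells, nearly all of it Pmp22, the 1 of 3 tested that rose. The sum of 5 fat-cell markers was 24.2 and 22.3 CPM in C/EBPβ cells and 25.5 and 21.8 CPM in empty vector cells, nearly all of it Pparg, with Lep at 0 in all libraries. The part of these marker lists in the results below was not tested, and in such bulk libraries fewer cells of a type and less RNA per cell cannot be told apart.

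Within the complex, C/EBPβ myoblasts had more RNA for α-sarcoglycan and less for dystroglycan, α-dystrobrevin and β1-syntrophin. Sgca rose 1.64-fold, while Dtna and Sntb1 fell to 0.593 and 0.575 of the empty vector level and Dag1 to 0.798 of it. The calls of Sgca, Dag1 and Sntb1 depended on single libraries, as given below, and that of Dtna did not. Sgcb, Sgcd, Sgce and Utrn did not pass the test, and Dmd, the gene that names the complex, was all but undetected in every library. In counts, 1 of the 8 tested members rose, 3 fell and 4 were not called, where 24.9% of all tested genes were called, 14.1% as higher and 10.8% as lower. The median log2 fold change was 0.09 over the 8 tested members and 0.00 over all genes tested. Calls are at an adjusted p of 0.05 by edgeR's quasi-likelihood test with Benjamini-Hochberg adjustment over all tested genes, and all adjusted p-values of genes come from it unless another source is named. A positive fold change means a higher level in C/EBPβ cells.

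**Figure D1:**
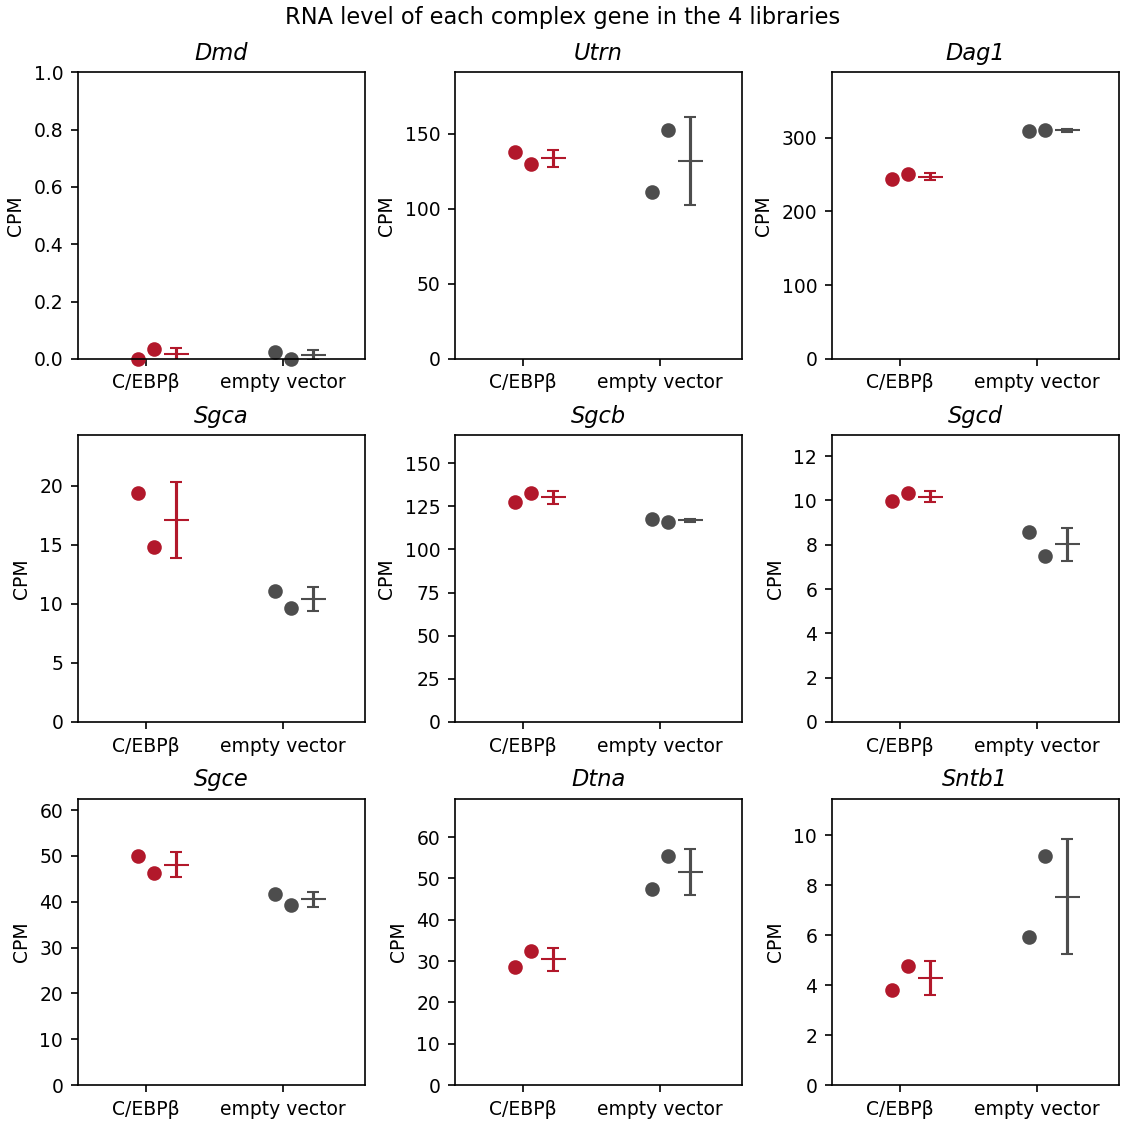
RNA level in CPM of the 9 complex genes in each library (points), with the mean and SD of the 2 libraries of each group beside them. The Dmd axis ends at 1 CPM and all 4 points lie at or near 0, while the groups are apart for the other genes except Utrn, whose empty vector points lie at 111 and 153 CPM.

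The starts of the genes are shown for the member that rose, for the dystroglycan gene that fell and for the barely detected Dmd, since these are the contrasts the results turn on. RefSeq windows (build GRCm38.p6) of 250 bases before to 50 after an annotated start were matched by symbol for 6 of the 9 members, with 8 windows in all; Sgce, Dtna and Sntb1 were not matched. Letters were searched on both strands for TTNNGNAA, a loose form of the C/EBP site (TTNCNNAA on the other strand), and for the E-box CANNTG, the site of MyoD-type factors, which reads the same on both strands. Capitals mark matches of either motif, and no match of one overlaps a match of the other in the windows printed. Of all 32851 such windows 40.7% hold the first motif and 72.3% the second.
Sgca, chr11:94976278-94976577, minus strand: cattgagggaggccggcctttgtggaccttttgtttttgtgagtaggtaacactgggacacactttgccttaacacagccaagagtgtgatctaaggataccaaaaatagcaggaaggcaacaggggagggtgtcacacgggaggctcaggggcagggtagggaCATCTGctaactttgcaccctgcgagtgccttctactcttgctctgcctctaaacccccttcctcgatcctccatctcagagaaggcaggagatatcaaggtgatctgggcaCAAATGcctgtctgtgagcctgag
Dag1, chr9:108263909-108264208, minus strand: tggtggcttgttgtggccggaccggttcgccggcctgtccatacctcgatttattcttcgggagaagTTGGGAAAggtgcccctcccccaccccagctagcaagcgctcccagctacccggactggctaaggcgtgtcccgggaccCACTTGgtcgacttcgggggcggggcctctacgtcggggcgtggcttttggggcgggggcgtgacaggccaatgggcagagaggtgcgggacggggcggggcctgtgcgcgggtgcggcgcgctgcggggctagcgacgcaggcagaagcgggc
Dmd, first start, chrX:82948620-82948919, plus strand: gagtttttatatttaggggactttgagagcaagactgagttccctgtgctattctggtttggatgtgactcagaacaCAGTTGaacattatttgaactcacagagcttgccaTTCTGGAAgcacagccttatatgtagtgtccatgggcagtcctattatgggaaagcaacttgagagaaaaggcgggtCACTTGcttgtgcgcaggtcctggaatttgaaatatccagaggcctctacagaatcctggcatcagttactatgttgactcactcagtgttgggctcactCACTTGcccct
Dmd, internal start, chrX:85048045-85048344, plus strand: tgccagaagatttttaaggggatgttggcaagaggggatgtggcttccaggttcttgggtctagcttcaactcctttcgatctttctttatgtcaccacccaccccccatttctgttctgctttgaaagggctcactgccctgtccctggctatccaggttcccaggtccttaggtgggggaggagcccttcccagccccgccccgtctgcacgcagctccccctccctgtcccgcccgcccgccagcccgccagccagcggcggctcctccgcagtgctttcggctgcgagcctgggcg
The Sgca window held 0 matches of the C/EBP letters and 2 E-boxes. The Dag1 window printed held 1 of each, and a second Dag1 window that overlaps it (chr9:108263766-108264065) held 0 matches of the C/EBP letters and 1 E-box. The first Dmd window held 1 and 3, and the internal Dmd window 0 of both. Of the members that were not called, Sgcb had 1 match of the C/EBP letters and 0 E-boxes, Sgcd 1 and 2, and Utrn 0 and 7. A match describes letters only, and nothing follows from a missing one about the factor.

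Dmd encodes dystrophin, the rod-like actin linker, on the X chromosome (ENSMUSG00000045103, chrX:82948870-85206141 on the plus strand of GRCm38). It had 0 and 3 counts in C/EBPβ libraries and 1 and 0 counts in empty vector libraries, over 23801 exon bases that also cover its short isoforms. It fell below the count filter and was not tested. A floor of 3 counts equals 0.0786 and 0.0327 CPM in C/EBPβ libraries and 0.0729 and 0.0793 CPM in empty vector libraries, for counting error only, and the gene-level counts do not tell its isoforms apart. No exon base of any of the 9 members is shared with another annotated gene on either strand. The nearest detected protein-coding genes after it on the X chromosome were Tab3, 0.368 Mb away, with 599 and 1560 counts in C/EBPβ libraries and 743 and 783 in empty vector libraries, and Gk, 0.496 Mb away, with 737 and 1901 counts in C/EBPβ libraries and 885 and 803 in empty vector libraries. On the other side Tmem47, 1.85 Mb before it, had 2247 and 4923 counts in C/EBPβ libraries and 2586 and 2430 in empty vector libraries. In the authors' deposited table Dmd has a base mean of 18.0 and a log2 fold change of -0.02, and which libraries enter that base mean is not stated.

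Utrn encodes utrophin, which takes the place of dystrophin at the membrane of many non-muscle and immature muscle cells (ENSMUSG00000019820, chr10:12382188-12861735, minus strand). Its level was 138 and 130 CPM in C/EBPβ cells, against 111 and 153 CPM in empty vector cells. The groups overlap, and the C/EBPβ libraries lie between the empty vector ones. The log2 fold change was 0.02 (SE 0.14, unadjusted 95% interval -0.30 to 0.33, adjusted p = 0.942). The interval leaves room for a change in either direction, so that equality is not shown. Per kb of exon, summed over a group, Utrn counts exceeded Dmd counts by a ratio of 10991 in C/EBPβ cells (95% counting interval 3760 to 53300) and 19891 in empty vector cells (3569 to 785735), which cover counting error only.

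Dag1 encodes both dystroglycan chains, which are cut from 1 precursor and span from laminin to dystrophin (ENSMUSG00000039952, chr9:108204634-108263958, minus strand). It stood at 244 and 250.5 CPM in C/EBPβ cells, against 309 and 311 CPM in empty vector cells. Both groups were tight and stood apart. Groups did not overlap for 7 of the 8 tested members, Dag1 included, nor for 66.2% of all tested genes. The mean was 247 ± 4.55 CPM in C/EBPβ cells and 309.8 ± 1.78 CPM in empty vector cells (SD, n = 2 each), a log2 fold change of -0.33 (SE 0.08, adjusted p = 0.0213). With C/EBPβ replicate 1 left out the log2 fold change was -0.31 and missed the threshold (adjusted p = 0.165), as did the -0.34 found with C/EBPβ replicate 2 left out (adjusted p = 0.0873).

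Among the sarcoglycans, Sgca encodes α-sarcoglycan, the subunit confined to striated muscle (ENSMUSG00000001508, chr11:94962791-94976327, minus strand). Its level was 19.4 and 14.8 CPM in C/EBPβ cells, against 11.1 and 9.67 CPM in empty vector cells. The groups did not overlap, and C/EBPβ replicate 1 was the highest library. The mean was 17.1 ± 3.24 CPM in C/EBPβ cells and 10.4 ± 1.03 CPM in empty vector cells (SD, n = 2 each), a log2 fold change of 0.71 (SE 0.15, adjusted p = 0.0114). With empty vector replicate 2 left out it was 0.61 and missed the threshold (adjusted p = 0.0725). Sgca rose in cells in which all 10 markers of differentiating muscle fell, among them Myog, the factor that starts terminal differentiation, with 5.32 and 10.9 CPM in C/EBPβ cells against 61.0 and 51.4 CPM in empty vector cells.

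Sgce encodes ε-sarcoglycan, the broadly expressed and maternally imprinted paralogue of α-sarcoglycan (ENSMUSG00000004631, chr6:4674350-4747207, minus strand). It stood at 50.01 and 46.2 CPM in C/EBPβ cells, against 41.7 and 39.4 CPM in empty vector cells. Its groups did not overlap, and with a log2 fold change of 0.25 (unadjusted 95% interval 0.04 to 0.45) it did not pass the test (adjusted p = 0.0787). The log2 ratio of Sgce to Sgca counts per kb was -1.25 and -0.97 in C/EBPβ libraries, against -0.71 and -0.59 in empty vector libraries. Sgca was thus above Sgce per length in all 4, while in CPM not corrected for length Sgce was above Sgca in all 4. The order of the 2 genes depends on their annotated exon lengths, 10612 bases for Sgce and 1735 for Sgca, which treat every annotated exon as used. The ratio was lower by 0.46 on the log2 scale in C/EBPβ cells, with p = 0.333 in an exact two-sided permutation test, the smallest p that 2 against 2 libraries allow.

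Sgcb encodes β-sarcoglycan, part of the core on which the other subunits assemble (ENSMUSG00000029156, chr5:73632749-73647790, minus strand). It had 128 and 133 CPM in C/EBPβ cells and 117 and 116 CPM in empty vector cells, a log2 fold change of 0.16 (unadjusted 95% interval -0.02 to 0.34, adjusted p = 0.185). Sgcd encodes δ-sarcoglycan, the partner of β-sarcoglycan in that core (ENSMUSG00000020354, chr11:46896253-47988969, minus strand). It had 9.99 and 10.4 CPM in C/EBPβ cells and 8.56 and 7.51 CPM in empty vector cells, a log2 fold change of 0.34 (unadjusted 95% interval 0.04 to 0.64, adjusted p = 0.0967). For both genes each C/EBPβ library was above each empty vector library, by less than the test requires.

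Both members of the cytoplasmic arm fell. Dtna encodes α-dystrobrevin, a relative of dystrophin that binds it and the syntrophins (ENSMUSG00000024302, chromosome 18, plus strand). It stood at 28.5 and 32.4 CPM in C/EBPβ cells, against 47.5 and 55.5 CPM in empty vector cells, with no overlap. Its log2 fold change was -0.75 (SE 0.11, adjusted p = 0.00161), and it was the member with the smallest adjusted p. Among the 4 called members Dtna alone kept its call with each of the 4 libraries left out in turn, between -0.86 and -0.64. Sntb1 encodes β1-syntrophin, an adaptor with a PDZ domain (ENSMUSG00000060429, chr15:55638843-55906949, minus strand). It had 3.80 and 4.76 CPM in C/EBPβ cells, against 5.91 and 9.17 CPM in empty vector cells. The groups did not overlap, but the empty vector libraries differed from each other by more than the nearest libraries of the 2 groups did. The log2 fold change was -0.80 (SE 0.22, adjusted p = 0.0328), but with empty vector replicate 2 left out it was -0.45 and missed the threshold (adjusted p = 0.176).

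**Figure D2:**
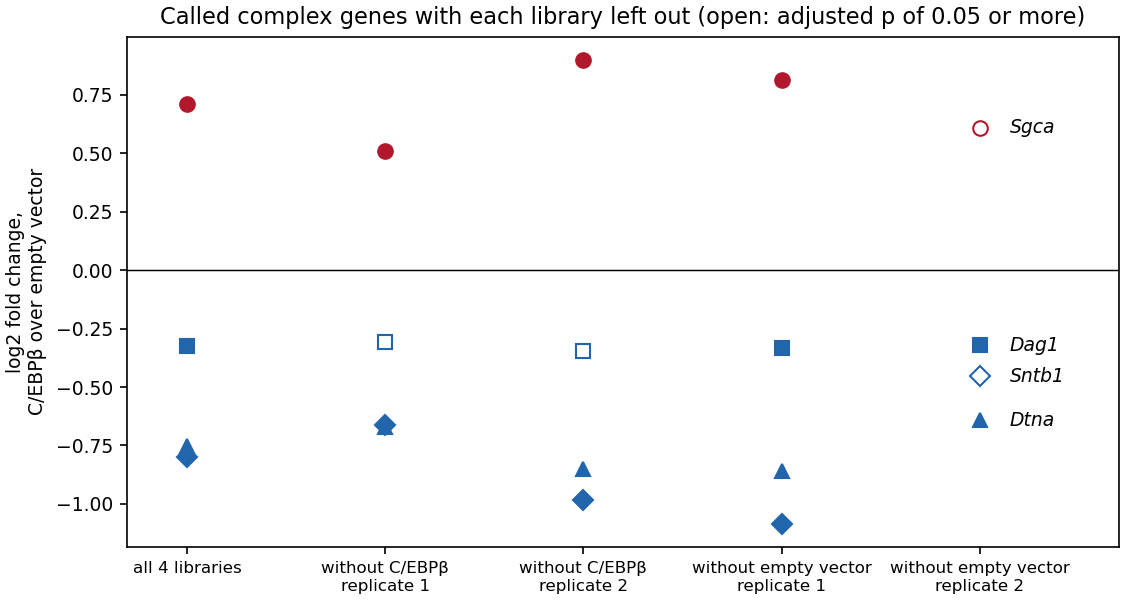
Log2 fold change, C/EBPβ over empty vector, of the 4 called complex genes with all libraries and with each library left out (open symbols, adjusted p of 0.05 or more). Every value keeps its sign, Dtna is filled throughout, and Sntb1 ranges from -1.08 to -0.45.

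Levels between genes were compared as CPM per kb of annotated exon, which treats every annotated exon as used. In C/EBPβ cells the order was Dag1 at 38.9 ± 0.715, Sgcb at 32.1 ± 0.929, Utrn at 10.8 ± 0.463, Sgca at 9.88 ± 1.87, Dtna at 4.62 ± 0.415, Sgce at 4.54 ± 0.251, Sntb1 at 1.49 ± 0.235 and, above Dmd, Sgcd at 1.23 ± 0.0311 CPM per kb (SD, n = 2 each). The libraries of Utrn and Sgca overlapped there, as did those of Dtna and Sgce. In empty vector cells the order was Dag1 at 48.7 ± 0.281, Sgcb at 28.8 ± 0.211, Utrn at 10.7 ± 2.38, Dtna at 7.82 ± 0.850, Sgca at 5.997 ± 0.595, Sgce at 3.82 ± 0.152, Sntb1 at 2.63 ± 0.804 and, above Dmd, Sgcd at 0.973 ± 0.0900 CPM per kb (SD, n = 2 each), with no overlap between neighbours. Dag1 was thus the most abundant member per length in both groups and lay above 90.8% of all tested genes by its mean, while Sgcd lay above 25.7% of them.

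Genes whose pattern over the 4 libraries lay closest to that of a called member were taken from 12732 protein-coding genes, by the Euclidean distance of log2 CPM centred per gene. For Sgca these were Tgfb2, a TGF-β ligand (distance 0.05), Pdk2, a kinase that inhibits pyruvate dehydrogenase (0.06), and Fstl3, an activin-binding protein (0.06), with log2 fold changes of 0.68, 0.76 and 0.70. For Dtna they were 1700030J22Rik, the protocadherin Pcdh19 and the nuclear receptor coactivator Ncoa7, at a distance of 0.04 each and log2 fold changes of -0.72, -0.77 and -0.75. With 4 libraries such likeness describes size and direction only.

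Of 11 further genes of the complex 8 could be tested, of which 4 rose, 1 fell and 3 were not called. Over all tested genes 24.9% were called, 14.1% as higher and 10.8% as lower. The median log2 fold change of the list was 0.29, also with Sntg2 at its bound, against 0.00 over all genes. Sntg2, γ2-syntrophin, had 13 and 36 counts in C/EBPβ libraries and 0 in both empty vector libraries, at least 9.92-fold higher when the empty vector group is set to 3 counts in all. Leaving out empty vector replicate 1 lowered this bound to 4.75-fold, and leaving out empty vector replicate 2 to 5.17-fold. Sspn, sarcospan, which stabilises the sarcoglycans, had 54.3 and 52.7 CPM in C/EBPβ cells and 42.4 and 44.5 CPM in empty vector cells (0.30, adjusted p = 0.0312). Sspn had an adjusted p of 0.0730 with empty vector replicate 1 left out, 0.225 with C/EBPβ replicate 1 left out and 0.117 with C/EBPβ replicate 2 left out. Another riser, named after its values were seen, was Nos1, a nitric oxide synthase that docks on syntrophin (0.99, adjusted p = 0.0403), at 1.42 and 1.01 CPM in C/EBPβ cells and 0.608 and 0.581 CPM in empty vector cells. Its adjusted p was 0.131 with empty vector replicate 1 left out, 0.135 with empty vector replicate 2 left out and 0.191 with C/EBPβ replicate 1 left out, and it was 0.141 in DESeq2 and 0.0592 in limma-voom. The list held 3 calls with either empty vector library left out and 2 with C/EBPβ replicate 1 left out. Drp2, dystrophin-related protein of the Schwann cell membrane, was not called at 58.5 and 58.5 CPM in C/EBPβ cells and 50.3 and 55.2 CPM in empty vector cells. Sgcz, Sntg1 and Cav3 were too low to test, with at most 8 counts in any library.

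**Figure D3:**
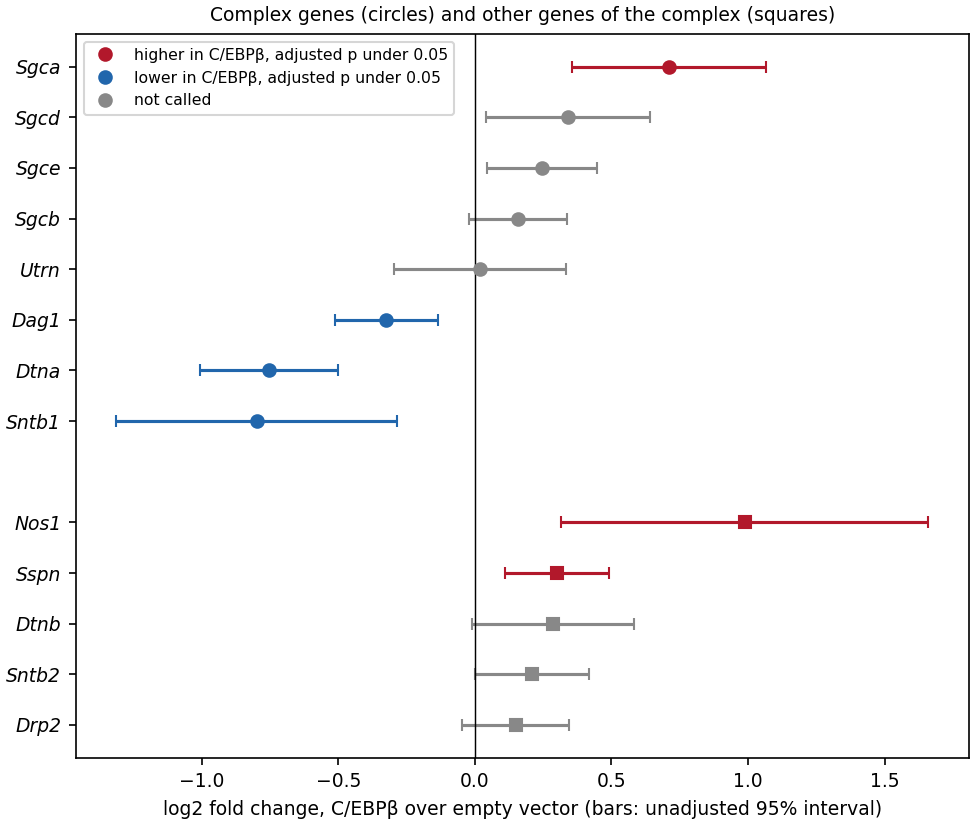
Log2 fold change, C/EBPβ over empty vector, with unadjusted 95% interval, of the 8 tested complex genes (circles) and of 5 further genes of the complex (squares), coloured by call; other genes of that list, among them Sntg2 with 0 counts in empty vector cells, are not drawn. Sgca at 0.71 lies at the upper end of the circles, and Dtna at -0.75 and Sntb1 at -0.80 lie on the other side of 0.

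The laminin grip of dystroglycan depends on enzymes that build its sugar chains. Of 17 such genes 1 rose and 16 were not called, or 5.88% called against 24.9% of all tested genes (median -0.01). The riser was Gmppb, which makes the mannose donor, with 35.9 and 30.2 CPM in C/EBPβ cells and 23.4 and 21.3 CPM in empty vector cells (log2 fold change 0.56, SE 0.12, adjusted p = 0.00913). With empty vector replicate 2 left out Gmppb had 0.49 (adjusted p = 0.0551), and 0 genes of the list were called. With empty vector replicate 1 left out 2 were called, 1 in each direction. Pomgnt1, an N-acetylglucosaminyltransferase of the pathway and the highest of the list in CPM not corrected for length, had 120.4 and 112 CPM in C/EBPβ cells and 109 and 105 CPM in empty vector cells (adjusted p = 0.332).

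Of 7 matrix ligands of dystroglycan 6 were tested, of which 3 rose and 3 were not called (median 0.42). Over all tested genes 24.9% were called, 14.1% as higher. Lama1, the laminin chain of early basement membranes, had 1699 and 3823 counts in C/EBPβ libraries, against 5 and 0 counts in empty vector libraries (log2 fold change 9.36, adjusted p = 1.89e-06). With so few empty vector counts its size depends on single libraries. The log2 fold change was 8.44 with empty vector replicate 2 left out, and with empty vector replicate 1 left out, which leaves 0 counts, Lama1 was at least 536-fold higher relative to 3 counts. Slit2, a guidance ligand that binds dystroglycan, had 56.6 and 50.8 CPM in C/EBPβ cells, against 41.2 and 34.5 CPM in empty vector cells (0.50, adjusted p = 0.0115). Agrn, agrin, which links dystroglycan to the synaptic basement membrane, had 58.2 and 54.2 CPM in C/EBPβ cells and 37.9 and 48.3 CPM in empty vector cells (0.38, adjusted p = 0.0483). It missed the threshold with empty vector replicate 1 left out (0.22, adjusted p = 0.135), with C/EBPβ replicate 1 left out (0.33, adjusted p = 0.112), with relative log expression factors (adjusted p = 0.0502) and with library totals only (adjusted p = 0.0571). Lama2, the laminin chain of mature muscle, had 35.2 and 38.9 CPM in C/EBPβ cells and 34.7 and 54.9 CPM in empty vector cells (adjusted p = 0.330). With C/EBPβ replicate 2 left out 5 of these genes were called, 4 of them as higher, and with empty vector replicate 1 left out 2 were called in each direction.

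Integrins are the other main laminin receptors. Of a list of 6 genes, laminin-binding integrin chains and the tetraspanin Cd151, 3 fell and 3 were not called (median -0.48). Cd151 was among those not called. The share of all tested genes called was 24.9%, with 10.8% as lower. Itga7, the muscle laminin receptor that works beside dystroglycan and also a myoblast marker above, had 241 and 326 CPM in C/EBPβ cells, against 692 and 825 CPM in empty vector cells (log2 fold change -1.42, adjusted p = 3.92e-04). Itga6 fell by 1.56 on the log2 scale (adjusted p = 1.57e-04) and Itga3 by 0.58 (adjusted p = 0.00271), while their shared partner Itgb1 was not called at 1180 and 1193 CPM in C/EBPβ cells and 1261 and 1300 CPM in empty vector cells (adjusted p = 0.466).

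Of 11 cytoskeletal partners 10 were tested, of which 3 rose, 4 fell and 3 were not called (median log2 fold change -0.14). The shares over all tested genes were 14.1% higher and 10.8% lower. Des, desmin, had 855 and 919 CPM in C/EBPβ cells, against 1296 and 1335 CPM in empty vector cells (-0.57, adjusted p = 0.00426). On the log2 scale Krt19, a keratin that ties dystrophin to costameres, fell by 1.999 (adjusted p = 3.42e-05), and Ank2, an ankyrin that anchors dystrophin, by 0.93 (adjusted p = 0.00251). Sync, syncoilin, a dystrobrevin-binding filament protein named after its values were seen, fell by 0.42 on the log2 scale (adjusted p = 0.0295). Dtna and this partner were thus both lower. The risers were Tln2, a talin (0.60, adjusted p = 0.0199), Synm, synemin, another dystrobrevin partner (1.08, adjusted p = 0.0306), and Ank3 (0.42, adjusted p = 0.0487). The calls of the 3 risers and of Sync depended on single libraries. Leaving out empty vector replicate 1 gave adjusted p = 0.128 for Tln2, 0.0621 for Synm and 0.170 for Ank3 (log2 fold change 0.25), and 0 risers and 5 lower genes in the list. Leaving out empty vector replicate 2 gave 0.145 for Synm and 0.113 for Sync (-0.28). Leaving out C/EBPβ replicate 1 gave 0.0637 for Tln2 (0.37), 0.0911 for Synm and 0.126 for Sync, and 4 calls in the list, 1 of them higher. Leaving out C/EBPβ replicate 2 gave 0.136 for Ank3. In DESeq2 Synm had 0.0722, and with library totals only Ank3 had 0.0589.

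**Figure D4:**
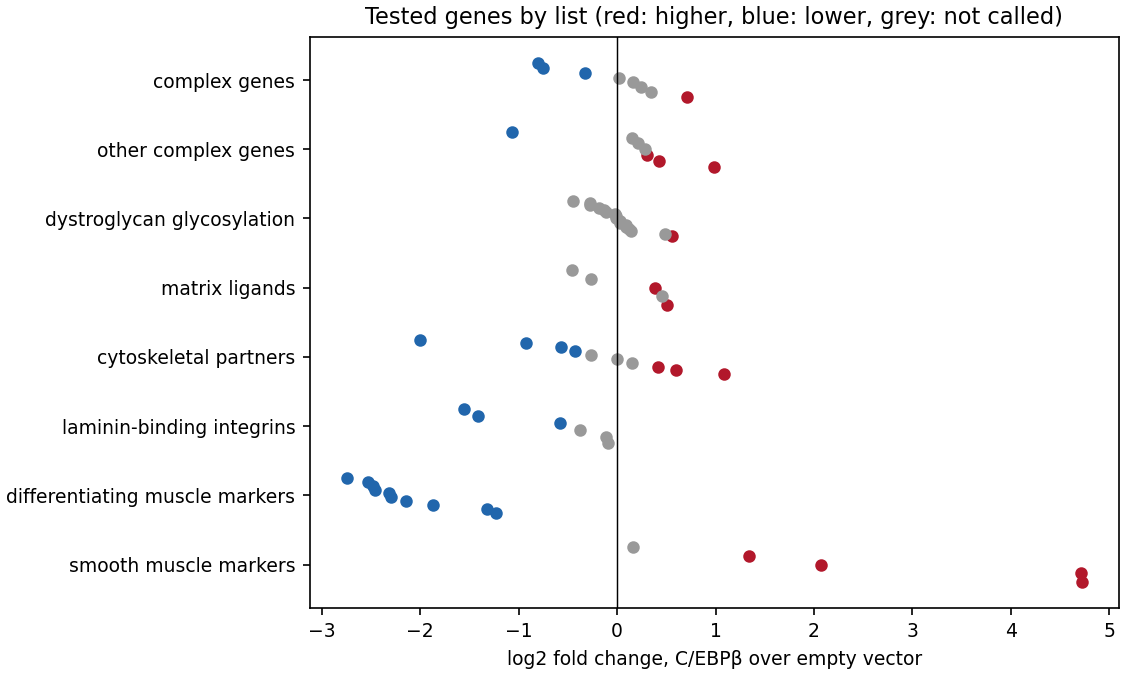
Log2 fold change, C/EBPβ over empty vector, of the tested genes of the complex, of the 5 lists around it and of 2 marker lists, each point 1 gene (red higher, blue lower, grey not called); Sntg2 and Lama1 are left out because their empty vector libraries were at or near 0. The complex genes spread to both sides of 0, between -0.80 and 0.71, while all 10 differentiating muscle markers lie at or below -1.24.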

How the data were processed

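The data are 4 messenger RNA libraries of proliferating C2C12 cells, 2 with C/EBPβ and 2 with empty vector, grouped by their titles. The deposited values are raw counts of fragments per gene. Per the file headers they were made with featureCounts 1.5.1 in paired, reverse-stranded mode on GENCODE M12, with no option set to count multi-mapping or ambiguous reads. The submitters' processing notes name HISAT2 2.0.4, the build GRCm38 and another featureCounts version (1.4.6). The authors' deposited table holds, under DESeq2's column names, a mean signal per gene, log2 fold changes and their errors, a score (fold change over error) and p-values, raw and adjusted. It was described, not retested.

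Genes were named from the reference annotation (49326 of 49585 identifiers), and 1 listed gene through a RefSeq synonym. Low genes were removed with filterByExpr (minimum count 10, minimum total 15), which left 15078, and both groups were fitted with edgeR 4.0.16 (R 4.3.3), by TMM-scaled quasi-likelihood F-test without covariates. CPM use the TMM-scaled total over tested genes. The SE is the log2 fold change over the root of the F statistic, and 95% intervals are unadjusted. Library totals set the precision, with 1 count equal to between 0.0109 and 0.0264 CPM. Fits leaving out a library kept the same 15078 genes. Alternatives were other scalings, other filters, DESeq2 1.42.0, limma-voom (limma 3.58.1) and a replicate block. The fit was tested on simulated data. It recovered 42.4% of 99 genes changed 1.5-fold and 72.9% of 96 genes changed 2-fold, among 14839 genes. Of its 122 calls 10 were false. The data held more calls, 3759 of 15078 genes, and recovery with that many changed genes was not tested.

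The members, lists and tests were chosen with earlier results of these data known. Named genes are all members and Cebpb, up to 3 called genes per direction and list by adjusted p, the 2 most abundant by CPM where fewer than 2 were called, and the 3 nearest profiles of the leading member in each direction; marker lists are given by their sums. Drp2, Nos1, Lama2, Itgb1, Sync and the neighbours of Dmd and Sgca were named after their values were seen. Some genes that the rule names are not reported here, and list counts include them.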

Additional observations from a re-analysis of the deposited data

How the results depend on the processing

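With other scalings, other filters, DESeq2, limma-voom or the replicate block, the 4 called members (Sgca, Dag1, Dtna and Sntb1) all kept their calls and no other member gained one. With 1 library left out 2 to 4 members were called, the lowest without empty vector replicate 2. The sign of Utrn, which is not called, turned with library totals only (-0.0018) and when empty vector replicate 1 (-0.19) or C/EBPβ replicate 1 (-0.03) was left out, within a range of -0.19 to 0.26 over the 4 libraries.

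Over all genes 3759 were called. Leaving out 1 library at a time gave 2519 to 3366 calls over all genes, 2 to 4 among the further complex genes, 0 to 2 among the glycosylation genes, 2 to 5 among the matrix ligands, 4 to 6 among the cytoskeletal partners and 3 each time among the integrins. The glycosylation list held 2 calls with library totals only and 2 with no low-count filter, and the matrix list 5 with no low-count filter. The replicate numbers are not stated to mark a shared culture, and the correlation of same-numbered deviations over genes was 0.15. With the number as a replicate block 4536 genes were called, 4 in the glycosylation list and 5 in the matrix list. The log2 difference in the ratio of Sgce to Sgca was -0.46 and ranged from -0.60 to -0.33 with a library left out. The planned log2 ratio of Utrn to Dmd could not be formed where Dmd had 0 counts, so that it has no alternatives. The cause was not tested.

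With 2 libraries a group, a missing call does not show that Utrn, Sgcb, Sgcd or Sgce stayed level, and Dmd is limited by its counts.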

Other observations

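Around Sgca, 5 other tested genes lie within 100 kb on chromosome 11, a window chosen after the values were seen. Of these 4 rose and 1 fell, where 24.9% of all tested genes were called, 14.1% as higher and 10.8% as lower. Col1a1, a collagen I chain 9.75 kb away, had 864 and 494 CPM in C/EBPβ cells, against 110.3 and 90.6 CPM in empty vector cells, a log2 fold change of 2.76 (adjusted p = 1.42e-04). Ppp1r9b, Samd14 and Pdk2 had log2 fold changes of 0.32, 0.37 and 0.76, and Itga3, 68.1 kb away, one of -0.58. No account of the neighbours was tested.

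The authors' deposited table gives log2 fold changes of 0.66 for Sgca, -0.37 for Dag1, -0.79 for Dtna and -0.83 for Sntb1, and adjusted p-values of 4.28e-04, 0.0320, 1.48e-10 and 1.09e-04. In that table the base mean of Sgca is 2071 and that of Sntb1 1490.5, against mean counts of 732 and 293 in the 4 libraries here. Which libraries enter the base mean is not stated.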
